A study of Rattus norvegicus with 3 samples.

Results

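Splicing factors and heterogeneous nuclear ribonucleoproteins (hnRNPs) were examined in cultured ventricular myocytes of newborn rats. The genes were chosen by symbol alone, as those whose annotated symbol began with Hnrnp or Hnrp, Srsf or Sfrs and a digit, Sf3a or Sf3b and a digit, Snrp, Prpf, U2af, or Rbm and a digit. They numbered 73 of the 10411 genes on the array, with 101 probe sets between them, and the brightest probe set stood for each gene. By role they were 16 hnRNP proteins, 7 SR proteins, 10 subunits of SF3A, SF3B and U2AF, 8 Sm and other snRNP proteins, 10 Prp factors and 22 numbered RNA-binding motif (RBM) proteins.

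Introns are removed from pre-messenger RNA by the spliceosome, which is built from small nuclear ribonucleoproteins (snRNPs) around a ring of Sm proteins. SR proteins mostly promote the use of a nearby exon, whereas many hnRNPs package the transcript and can block a splice site. In the heart, the balance of such regulators selects isoforms of sarcomere and calcium-handling proteins, and it shifts between the fetal and the adult organ.

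The unstimulated array held RNA from neonatal rat ventricular myocytes cultured for 48 h. The phenylephrine array held RNA from such cells cultured for 48 h with 20 µM phenylephrine, an agonist of α1-adrenergic receptors that makes cardiac myocytes grow, and the PAMH array from cells cultured for 48 h with 1 µM PAMH. PAMH is the submitters' name for their other compound, listed beside the keywords 5-hydroxytryptamine and pyridine. Each condition was 1 array, so no ratio below has a replicate, a standard error or a p-value, and the doses of the compounds differed. Both treated arrays were set against the same unstimulated array, so a chance deviation of that array enters both comparisons. Whether cells of several animals were pooled is not given in the sources used here.

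Signals are intensities scaled so that the arrays share 1 median, and a log2 ratio is the difference between 2 arrays on the log2 scale. Ratios were restricted to genes whose signal reached 76.0, called the floor, on both arrays, and a gene was counted as higher or lower at 1.5-fold. On the deposited intensities the median of all probe sets was lower on both treated arrays than without treatment, by log2 values of -0.13 (phenylephrine) and -0.15 (PAMH), and all ratios below are relative to that shift. The trimmed mean of the deposited intensities was 250.1 on each array, so they appear to have been scaled to a common target already, and which scaling is nearer to equal RNA was not tested. Genes read by several probe sets supply a technical yardstick. The SD among the log2 ratios of one gene's probe sets was 0.27 with phenylephrine (864 genes) and 0.29 with PAMH (867 genes), both relative to the unstimulated array, and 0.23 between the treated arrays (866 genes). This yardstick holds no variation between cultures.

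The labelled cell type and treatments were checked first. All 10 cardiac myocyte markers found on the arrays were above the floor on each array, and the hypertrophy genes Nppa, Nppb, Acta1 and Rcan1 were all at least 1.5-fold higher with either compound. The 3 endothelial markers were below the floor on every array. Fibroblast markers were present, with 7 of 8 measured in every comparison. Their summed signal was 9379 on the unstimulated array, 7166 with phenylephrine and 5540 with PAMH, with 1 of the 7 at least 1.5-fold lower with phenylephrine and 6 with PAMH. All 4 smooth muscle markers were measured, with summed signals of 3035, 7147 and 6000 in the same order. Cnn1 was 7.20-fold higher with phenylephrine and 5.60-fold with PAMH, Acta2 2.44-fold and 2.86-fold, and Tagln 1.84-fold and 1.30-fold, while Myh11 was level with phenylephrine and 1.56-fold lower with PAMH. The part of these differences in the ratios below was not tested. In RNA from a whole culture, fewer cells of a type and less RNA per cell cannot be told apart.

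Splicing factor and hnRNP transcripts were present almost throughout and differed little between the arrays. Of the 73 genes, 72 were above the floor on all 3 arrays, or 98.6%, against 61.5% of all genes. The exception was Rbm47, with signals of 69.6, 94.5 and 83.9 in the order unstimulated, phenylephrine, PAMH, which is the order used for signals throughout. With phenylephrine 70 of the 72 measured genes, or 97.2%, lay within 1.5-fold of the unstimulated array, against 86.6% of all genes. With PAMH 64 of 72 did, or 88.9%, which was near the 86.5% of all genes. No member was 2-fold higher with phenylephrine (2.62% of all genes were) or 2-fold lower (0.761%), and with PAMH none was 2-fold higher (2.05%) or lower (0.794%).

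With phenylephrine, 1 member was at least 1.5-fold higher, where 8.90% of all 6571 genes measured were, and 1 was at least 1.5-fold lower, where 4.54% were. As shares these are 1.39% of the members in each direction, below the background on both sides. With PAMH, 6 members were higher (8.33%, against 9.31% of all 6549 genes measured) and 2 were lower (2.78%, against 4.17%), so the share of higher members was near the background. On the deposited intensities the split was 0 higher and 3 lower with phenylephrine, and 0 higher and 4 lower with PAMH. Of all genes, 5.98% were then higher and 7.83% lower with phenylephrine, and 5.33% and 7.84% with PAMH, so the members' shares of 4.17% and 5.56% lower were below the background there too. The median log2 ratio of the members was -0.02 with phenylephrine, against 0.07 for all genes, and 0.04 with PAMH, against 0.10.

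**Figure D1:**
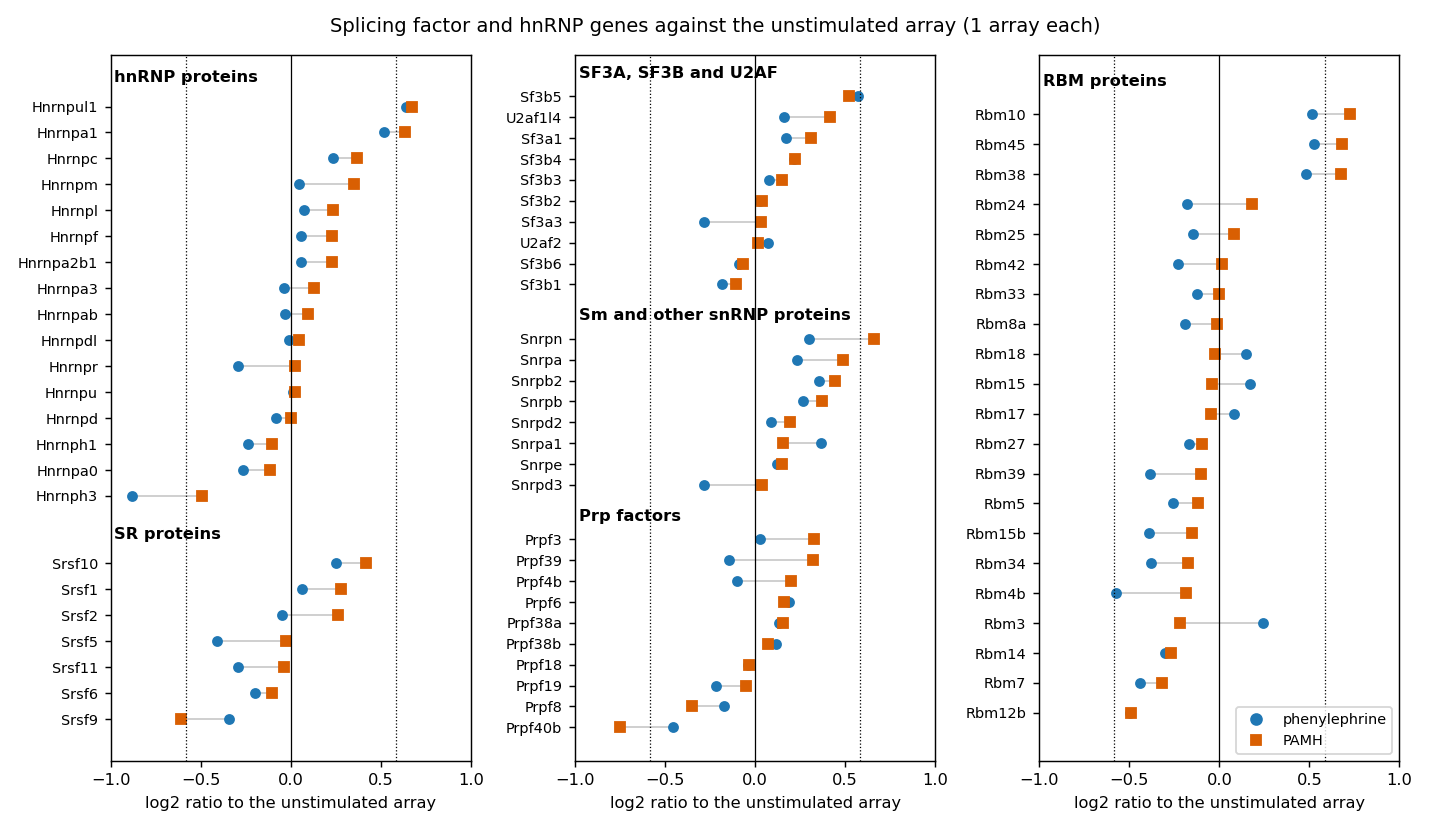
Log2 ratio of each of the 72 members measured on the unstimulated array and either treated array, grouped by role, with phenylephrine as circles and PAMH as squares; each point is 1 array against 1 array, and dotted lines mark 1.5-fold. Most points lie between the dotted lines, Hnrnph3 is furthest left with phenylephrine at -0.88, and Rbm10 is furthest right with PAMH at 0.72.

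The members' ratios were also set beside genes of like signal, since ratios on these arrays went up with signal. The 6400 genes above the floor on every array were split by mean signal into 4 bins of 1600. In the brightest bin the median log2 ratio was 0.19 with phenylephrine and 0.25 with PAMH. The 32 members in that bin had medians of -0.02 and 0.04, and only 5 of them with phenylephrine and 6 with PAMH lay above its median. In the middle bins the members were nearer to the other genes. The second bin held 16 members with a median of 0.04 with phenylephrine against 0.00 for its 1600 genes, and the third held 14 with 0.04 against 0.06. The dimmest bin held 10 members with a median of -0.24 against -0.01, and 4 of the 10 lay above the bin's median. With PAMH the members' medians were -0.13 in the dimmest bin, 0.05 in the second and 0.12 in the third. The medians of all genes in these bins were 0.01, 0.04 and 0.10.

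Of the 9 members past 1.5-fold in any comparison, Hnrnpul1 was the one that passed it with both compounds. It encodes an hnRNP U-like protein linked to messenger RNA export and the DNA damage response. Its signals were 88.1, 137 and 141, so the unstimulated array was low and near the floor while both treated arrays were alike, at 1.55-fold with phenylephrine and 1.60-fold with PAMH. It was past 1.5-fold under 8 of the 11 alternatives that gave a value, with either compound.

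**Figure D2:**
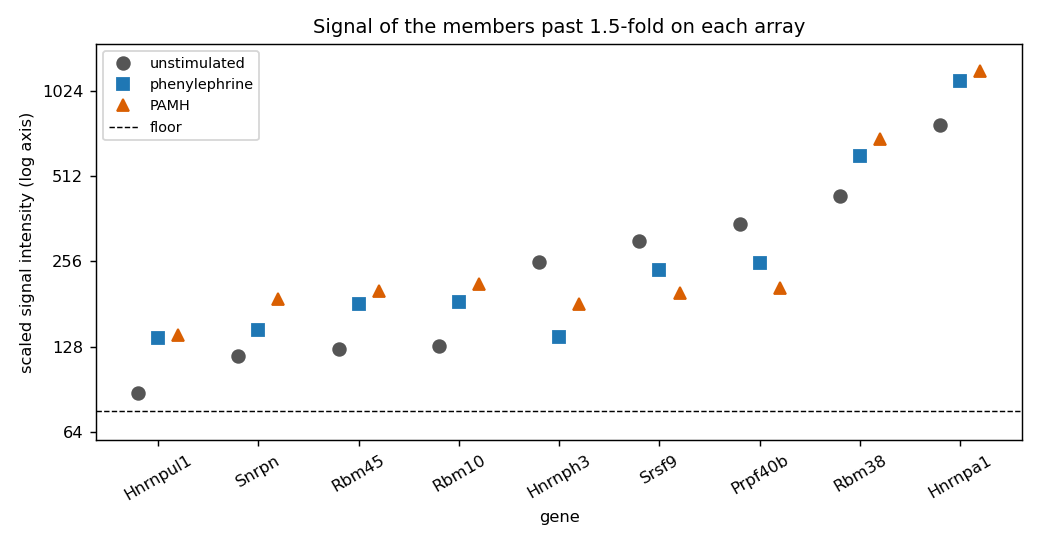
Scaled signal intensity, on a log axis, of the 9 members at least 1.5-fold higher or lower in any comparison, with 1 point per array and the floor as a dashed line. For 6 of them the unstimulated array is the lowest, and Hnrnpul1 at 88.1 is nearest the floor; for Hnrnph3, Srsf9 and Prpf40b it is the highest.

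The sequences before the transcription start are shown for 4 members: Hnrnpul1, Hnrnpa1, which had the widest spread between its probe sets against the unstimulated array, Rbm45, an RBM gene higher with PAMH, and Srsf5, the lowest SR protein gene with phenylephrine. Each is the 250 bases before a start in RefSeq (GRCr8), 5′ to 3′ on the gene's strand. Starts were used as listed, and some may be internal to the gene. Capitals mark 3 motifs on either strand. They are the CCAAT box, the GC box with the letters GGGCGG, and the core site of ETS transcription factors, searched as CCGGAAG.
Hnrnpul1, chr1:90390371-90390620 on the minus strand: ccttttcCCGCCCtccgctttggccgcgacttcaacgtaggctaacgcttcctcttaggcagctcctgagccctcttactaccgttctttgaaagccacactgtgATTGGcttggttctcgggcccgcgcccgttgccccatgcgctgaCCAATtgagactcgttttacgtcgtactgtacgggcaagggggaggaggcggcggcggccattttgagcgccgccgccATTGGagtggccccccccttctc
Hnrnpa1, chr7:136253868-136254117 on the plus strand: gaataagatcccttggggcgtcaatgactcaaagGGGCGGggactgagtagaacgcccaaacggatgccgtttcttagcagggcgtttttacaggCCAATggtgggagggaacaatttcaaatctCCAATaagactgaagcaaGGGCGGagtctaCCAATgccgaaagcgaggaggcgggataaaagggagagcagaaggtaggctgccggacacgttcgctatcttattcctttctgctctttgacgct
Rbm45, chr3:81712964-81713213 on the plus strand: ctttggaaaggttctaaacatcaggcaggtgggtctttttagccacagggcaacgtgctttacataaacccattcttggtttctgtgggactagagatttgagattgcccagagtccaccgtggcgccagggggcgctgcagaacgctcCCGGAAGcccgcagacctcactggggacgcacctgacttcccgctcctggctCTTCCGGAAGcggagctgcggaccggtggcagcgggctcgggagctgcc
Srsf5, chr6:106336506-106336755 on the plus strand: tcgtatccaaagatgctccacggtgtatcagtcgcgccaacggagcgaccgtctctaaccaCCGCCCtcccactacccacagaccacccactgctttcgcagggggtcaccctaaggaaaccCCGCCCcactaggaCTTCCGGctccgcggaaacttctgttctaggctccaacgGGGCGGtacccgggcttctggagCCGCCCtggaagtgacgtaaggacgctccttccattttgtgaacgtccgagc
The Hnrnpul1 and Hnrnpa1 sequences each held CCAAT 3 times. Rbm45 held CCGGAAG 3 times, of which a pair overlaps on opposite strands, and Srsf5 held GGGCGG 4 times.

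Promoter windows were found for 70 of the 73 members, 77 windows in all, and Rbm12b, Sf3b2 and U2af2 had none in the table. CCAAT was in 51.9% of the members' windows, against 35.7% of the 5957 windows of genes above the floor on all arrays and 34.0% of all 33469 windows. CCGGAAG was in 24.7%, against 16.7% and 7.27%, and GGGCGG in 50.6%, against 61.1% and 30.5%. TATAAA, the TATA box, was in 7.79%, against 6.65% and 12.9%. CACGTG, an E-box, was in 7.79% (8.36% and 5.59%), and TGACGTCA, the cyclic AMP response element, in 1.30% (2.80% and 1.59%). Some members have several windows that overlap. These are matches of letters and show no binding.

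Among the hnRNP proteins, Hnrnph3 was the lowest. It encodes a member of the hnRNP H and F family, which bind runs of G. Its signals were 255, 138 and 181, so both treated arrays lay below the unstimulated one, at 1.84-fold lower with phenylephrine and 1.41-fold lower with PAMH. The phenylephrine value stayed past 1.5-fold under all 12 alternative settings. Its relatives did not share the size of this difference. Hnrnph1 had log2 ratios of -0.24 with phenylephrine and -0.11 with PAMH, and Hnrnpf had 0.05 and 0.23.

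Hnrnpa1 encodes the prototype hnRNP, which binds splicing silencers and opposes SR proteins. By its brightest probe set the signals were 775, 1111 and 1203, which on the log2 scale is 0.52 for phenylephrine and 0.63 for PAMH, the latter 1.55-fold. Its other probe sets did not bear this size out. The next gave 536, 638 and 685, with ratios of 0.25 and 0.35, and the dimmest gave 420, 358 and 388, with -0.23 and -0.11. The direction of Hnrnpa1 against the unstimulated array therefore differed between probe sets, and the PAMH call held under 5 of the 11 alternatives that gave a value.

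By their brightest probe sets and in the main scaling, Hnrnpa2b1, Hnrnpa3, Hnrnpab and Hnrnpu differed from the unstimulated array by at most 1.17-fold. Hnrnpa2b1, a close relative of hnRNP A1, had signals of 1788, 1861 and 2092, with the PAMH array highest in that scaling. Hnrnpa3 had 2345, 2280 and 2561, and Hnrnpab 1987, 1941 and 2124. Hnrnpu, a nuclear matrix protein needed for normal splicing in heart muscle, had 1868, 1881 and 1895, log2 ratios of 0.01 and 0.02. After quantile normalization its ratio with PAMH was -0.29. Hnrnpa3 then had -0.34 with phenylephrine and -0.23 with PAMH, Hnrnpab -0.30 and -0.22, and Hnrnpa2b1 -0.19 and -0.08.

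Of the other hnRNPs, Hnrnpc, which binds uridine tracts, had 1122, 1319 and 1445 (log2 ratios 0.23 and 0.37), and Hnrnpm had 311, 321 and 396 (0.05 and 0.35). Hnrnpl, which binds CA repeats, had 832, 875 and 978. These 3 were highest on the PAMH array. Hnrnpr, with 702, 573 and 714, was low on the phenylephrine array alone. Hnrnpa0, with 1321, 1100 and 1218, was below the unstimulated array on both. Hnrnpd, the AU-rich element binding protein AUF1, had 517, 487 and 517, and its relative Hnrnpdl 1055, 1048 and 1089. As a group the 16 hnRNPs had median ratios of 0.00 with phenylephrine and 0.11 with PAMH, with 8 and 12 of 16 above 0. After quantile normalization these medians were -0.19 and -0.14, and after cyclic loess -0.18 and -0.14.

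The SR proteins were low on the phenylephrine array. Their median log2 ratio was -0.20 with phenylephrine and -0.03 with PAMH, against 0.07 and 0.10 for all genes, and 5 of 7 were below 0 with phenylephrine. The median with phenylephrine was below that of all genes by 0.27, and by between 0.27 and 0.35 under the other scalings and normalizations. None of the 7 was past 1.5-fold with phenylephrine, where 8.90% of all genes were higher and 4.54% lower. Srsf5 had signals of 1158, 871 and 1136, so the phenylephrine array lay below both others, with a ratio of -0.41 on the log2 scale and of -0.62 once the arrays were quantile normalized. The PAMH ratio was -0.03, and -0.29 under that normalization.

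Srsf9 was the SR protein past 1.5-fold with PAMH. Its signals of 303, 238 and 198 were lower on both treated arrays, at 1.53-fold lower with PAMH and a log2 ratio of -0.34 with phenylephrine. The PAMH value was past 1.5-fold under 11 of 12 alternative settings. Srsf11, with 511, 416 and 498, and Srsf6, with 996, 868 and 926, were lowest on the phenylephrine array. A second, dimmer Srsf6 probe set put that array highest, with 210, 222 and 171, so the direction of Srsf6 with phenylephrine was not settled.

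Srsf1 and Srsf2, the founding members of the family and both studied in heart muscle, were highest on the PAMH array. Srsf1 had 798, 832 and 967 and Srsf2 had 1180, 1140 and 1412, with PAMH log2 ratios of 0.28 and 0.26. These were 0.08 and -0.02 after quantile normalization. A second, dimmer Srsf2 probe set gave 323, 364 and 512, a PAMH ratio of 0.66. The second Srsf1 probe set gave 322, 226 and 323, with ratios of -0.51 for phenylephrine and 0.00 for PAMH. Srsf10, an SR protein that acts in cardiac calcium handling, had 117, 138 and 156 (0.25 and 0.42). After quantile normalization 1 of the 7 SR proteins lay above 0 with phenylephrine and 2 with PAMH.

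SF3A, SF3B and U2AF recognise the branch point and the 3′ splice site with the U2 snRNP. They were close to the other genes, with medians of 0.07 and 0.09 over 10 members and none past 1.5-fold. Sf3b5, which encodes a small SF3B subunit, came nearest. Its signals were 1166, 1734 and 1675, both treated arrays well above the unstimulated one, at 1.49-fold and 1.44-fold. After quantile normalization its log2 ratios were 0.33 and 0.22.

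Sf3b1, the largest SF3B subunit, had 993, 873 and 921 by its brighter probe set and 799, 904 and 782 by the other. These put the phenylephrine array lowest and highest in turn, so its direction was not settled. Sf3b2 had 751, 765 and 771, Sf3b3 had 740, 780 and 820, and Sf3b6, which contacts the branch point adenosine, had 1091, 1024 and 1043. U2af2, which binds the polypyrimidine tract, had 810, 853 and 818. In the main scaling Sf3b2, Sf3b3, Sf3b6 and U2af2 differed from the unstimulated array by at most 1.11-fold. After quantile normalization the ratios of Sf3b6 were -0.29 with phenylephrine and -0.28 with PAMH. U2af1l4, a paralogue of the small U2AF subunit, had 220, 246 and 293, a PAMH ratio of 0.41. Sf3a1 (ratios 0.17 and 0.31), Sf3b4 (0.22 and 0.22) and Sf3a3 (-0.28 and 0.03) made up the rest.

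The Sm and other snRNP proteins were the role with the highest medians, 0.25 with phenylephrine and 0.28 with PAMH. In the main scaling 7 of 8 lay above 0 with phenylephrine and 8 of 8 with PAMH. On the deposited intensities 5 of 8 lay above 0 with either compound, as they did after quantile normalization and after cyclic loess. The median nonetheless exceeded that of all genes by 0.11 to 0.18 in every scaling and normalization run. Probe sets of Snrpc and Snrpg, shared with close copies and so left out of this role, were lower than these medians. Their ratios with phenylephrine and PAMH were 0.10 and 0.04 for Snrpc, and 0.04 and 0.09 for Snrpg.

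Snrpb, the Sm B protein of the ring, had signals of 1189, 1427 and 1538 (log2 ratios 0.26 and 0.37). Snrpb2 and Snrpa1, which belong to the U2 snRNP, had 265, 339 and 360 (0.36 and 0.44) and 159, 205 and 177 (0.37 and 0.15). Snrpa, the A protein of the U1 snRNP, had 147, 173 and 207 (0.23 and 0.49). All 4 were lowest on the unstimulated array. In the main scaling the ring proteins Snrpd2 (1499, 1594 and 1713) and Snrpe (1795, 1951 and 1991) were lowest there too, by less. After quantile normalization both were instead highest on the unstimulated array. The log2 ratios were then -0.16 and -0.11 for Snrpd2 and -0.14 and -0.16 for Snrpe. Both were also highest on that array after cyclic loess. Snrpd3, with 989, 814 and 1016, was lowest on the phenylephrine array.

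Snrpn encodes the SmN protein, a tissue-restricted relative of Sm B from an imprinted transcript shared with Snurf. Its own probe set gave 119, 146 and 188, which is 1.58-fold higher with PAMH and past 1.5-fold under 9 of 12 alternatives. A pair of brighter probe sets annotated to both Snurf and Snrpn, which the choice of genes leaves out, did not show this. They gave 808, 618 and 786, and 763, 683 and 750, with PAMH log2 ratios of -0.04 and -0.02. With phenylephrine their ratios were -0.39 and -0.16, against 0.30 for the probe set of Snrpn alone.

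The Prp factors, which assemble and remodel the spliceosome, had medians of -0.07 with phenylephrine and 0.11 with PAMH over 10 members. Prpf40b, linked to the U1 snRNP, was the lowest of all members with PAMH. Its signals were 348, 253 and 207, below the unstimulated array on both treated arrays, at 1.68-fold lower with PAMH under the main scaling and past 1.5-fold under all 12 alternative settings. With phenylephrine its log2 ratio was -0.46. Prpf8, the scaffold of the catalytic centre, went the same way with 784, 696 and 615 (-0.17 and -0.35).

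Other Prp factors differed from these. Prpf39 had 258, 233 and 323, which was the highest ratio of PAMH to phenylephrine of any member, at a log2 value of 0.47. Prpf3 of the tri-snRNP, with 276, 282 and 346, and the kinase Prpf4b, with 295, 275 and 339, were also highest on the PAMH array. Prpf19, the ubiquitin ligase that acts in activating the spliceosome, had 386, 333 and 373. Prpf6, Prpf18, Prpf38a and Prpf38b had ratios between -0.04 and 0.19.

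The RBM proteins were the largest role and lay lowest beside the SR proteins, with medians of -0.18 with phenylephrine and -0.04 with PAMH over 21 measured members. Of these 14 were below 0 with phenylephrine and 15 with PAMH. Their medians were below those of all genes by 0.25 and 0.14, and remained below under the 4 other scalings and normalizations. Of the 21 measured against the unstimulated array, 3 were past 1.5-fold, and all of them were higher with PAMH, as were 9.31% of all genes. None of the 21 was lower with PAMH, where 4.17% of all genes were, and none was past 1.5-fold with phenylephrine.

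Rbm10, Rbm45 and Rbm38 made up this trio. Rbm10, a splicing regulator of the spliceosome's early complexes, had 129, 184 and 213. Rbm45 had 126, 180 and 202, and Rbm38, a target of p53 and a close relative of Rbm24, had 435, 606 and 695. In each the unstimulated array was lowest and the PAMH array highest. With PAMH they were 1.65-fold, 1.61-fold and 1.60-fold higher, and with phenylephrine the log2 ratios were 0.51, 0.52 and 0.48. On the deposited intensities the PAMH ratios were below 1.5-fold, at 0.57, 0.53 and 0.52. Rbm38 was also below it after quantile (0.55) and cyclic loess (0.53) normalization, and Rbm45 and Rbm38 when ratios were centred on the measured genes (both 0.58). Of the 12 alternatives, 10 kept Rbm10, 9 kept Rbm45 and 8 kept Rbm38 past 1.5-fold.

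Rbm24, a splicing regulator enriched in heart and skeletal muscle, had 1804, 1595 and 2046, with log2 ratios of -0.18 and 0.18. After cyclic loess these were -0.40 and -0.10, so its direction with PAMH was not settled. Of its 3 other probe sets none was above the floor on all arrays. Rbm3, a cold-inducible protein, had 1606, 1902 and 1378. It was the member with the lowest ratio of PAMH to phenylephrine, at -0.46, with 0.24 for phenylephrine and -0.22 for PAMH against the unstimulated array. After quantile normalization these were 0.01 and -0.50, so the height with phenylephrine depended on the normalization, while the ratio between the treated arrays was -0.51.

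Several RBM genes were low on the phenylephrine array. Rbm39, a coactivator that works with U2AF, had 945, 725 and 882, and its 4 probe sets gave phenylephrine ratios between -0.39 and -0.13, all below 0. Rbm4b had 131, 88.1 and 115, a ratio of -0.57 just short of 1.5-fold. A brighter probe set annotated to both Rbm4b and Rbm4 gave 327, 317 and 325, a ratio of -0.04. Rbm12b (132, 93.4 and 93.7) and Rbm7 (152, 112 and 122), a subunit of a nuclear exosome adaptor, were low with both compounds. Rbm15b, which helps to recruit the m6A writer, had 263, 201 and 237, and Rbm14, a paraspeckle protein, 138, 112 and 114. Rbm5, a paralogue of Rbm10, went the other way from it with 1005, 840 and 927. Rbm8a, the Y14 protein of the exon junction complex, had 1233, 1081 and 1221.

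None of the remaining RBM genes passed 1.5-fold. Rbm34, with 167, 128 and 148 and a phenylephrine ratio of -0.38, was lowest on the phenylephrine array, as were Rbm25 (339, 306 and 358) and Rbm42 (319, 272 and 321). Rbm15, Rbm17 and Rbm18 were highest there, with phenylephrine ratios of 0.17, 0.08 and 0.15. Rbm27 had 145, 129 and 136, and Rbm33 had 286, 263 and 286.

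The treated arrays were then compared directly. None of the 73 members was at least 1.5-fold higher with PAMH than with phenylephrine, where 1.93% of 6593 genes were, and none was 1.5-fold lower, where 2.67% were. Small differences nevertheless lay mostly on one side in the main scaling, with 60 of 73 members, or 82.2%, higher on the PAMH array. The share of all genes was 56.7%. The members' count was 53 on the deposited intensities, 55 when scaled on percentile 75 and 56 after quantile normalization. It was 52 after cyclic loess and 50 when ratios were centred on the measured genes. The members' median log2 ratio was 0.13, against 0.04 for all genes. No member reached 2-fold, where 0.197% of genes were 2-fold higher and 0.364% lower. This excess over all genes was between 0.08 and 0.10 under the main setting and all 12 alternatives.

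All 16 hnRNPs chosen by symbol were higher on the PAMH than on the phenylephrine array, by log2 ratios from 0.01 for Hnrnpu to 0.39 for Hnrnph3. Under each of the 4 other scalings and normalizations 15 of 16 were, with Hnrnpu just below 0. Dimmer probe sets of Hnrnpdl (-0.18) and Hnrnpa3 (-0.08) went the other way, as did one of Srsf6 (-0.37). A list of other hnRNP-like and paraspeckle proteins, which bear other symbols, did not share this pattern. Of these, 11 of 19 were above 0, with a median of 0.03 against 0.04 for all genes. Rbmx, the hnRNP G gene, was at -0.45. Of the SR proteins 6 of 7 were higher, with Srsf5 at 0.38 and Srsf2 at 0.31, and Srsf9 at -0.27. Of the RBM proteins 17 of 22 were higher. The Sm and other snRNP proteins had 7 of 8 higher and a median of 0.11. The Prp factors did not share the pattern, with 6 of 10 and a median of 0.01. SF3A, SF3B and U2AF did not clearly share it either. Their median was 0.05 against 0.04 for all genes, with 8 of 10 above 0 in the main scaling. On the deposited intensities and after cyclic loess 5 of these 10 were above 0, against 6 when scaled on percentile 75 and 7 after quantile normalization.

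**Figure D3:**
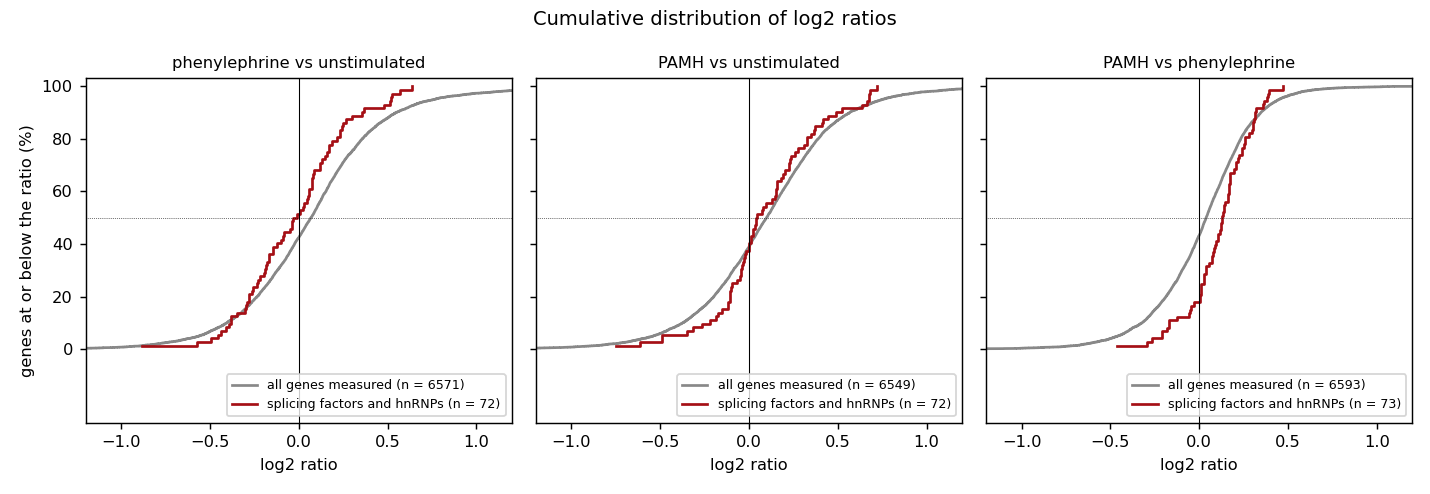
Cumulative percentage of genes at or below each log2 ratio in the 3 comparisons, for the members and for all genes measured. In the comparison of PAMH with phenylephrine the members' curve lies to the right of all genes at its middle, with a median of 0.13 against 0.04, and in the other panels it lies to the left there.

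Over the 72 members above the floor on every array, the phenylephrine array held the lowest of the 3 signals for 34, or 47.2%, against 29.6% of the 6400 genes above the floor. It held the highest for 9, or 12.5%, against 30.4%. Under the other scalings and normalizations it was lowest for 33 to 42 members, against 30.8% to 35.0% of all genes. It was highest for 8 to 10, against 26.5% to 30.6%. The PAMH array was highest for 38 of 72, or 52.8%, in the main scaling, against 40.6% of all genes. In the others it was highest for 21 to 30 of 72, against 28.6% to 34.7% of all genes. After quantile normalization and after cyclic loess the count was 21 of 72, a share slightly below the 31.1% and 30.6% of all genes. The excess on the PAMH array therefore depended on the processing. The unstimulated array was highest in these settings for 32 to 43 of 72, against 34.9% to 44.9%, a larger share than of all genes in each.

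Probe sets of the same gene gave a measure of how far a single value can be read. In the comparison with phenylephrine 13 members had at least 2 measured probe sets, and in 8 of them the ratios had opposite signs. With PAMH this was so in 6 of 14, and between PAMH and phenylephrine in 6 of 13. The SD between probe sets of a member was 0.25 with phenylephrine and 0.22 with PAMH, not far below the SD of 0.29 and 0.30 between the members themselves. Between PAMH and phenylephrine the SD between probe sets was 0.22, wider than the SD of 0.18 between the members. The ranking of single members in that comparison is therefore uncertain. Ratios differed by over 1.5-fold for Hnrnpa1 against the unstimulated array, for Hnrnpa2b1 with phenylephrine (0.06 and -0.53) and for Hnrnpu between PAMH and phenylephrine, where its dimmest probe set, with 207, 140 and 258, gave 0.87.

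**Figure D4:**
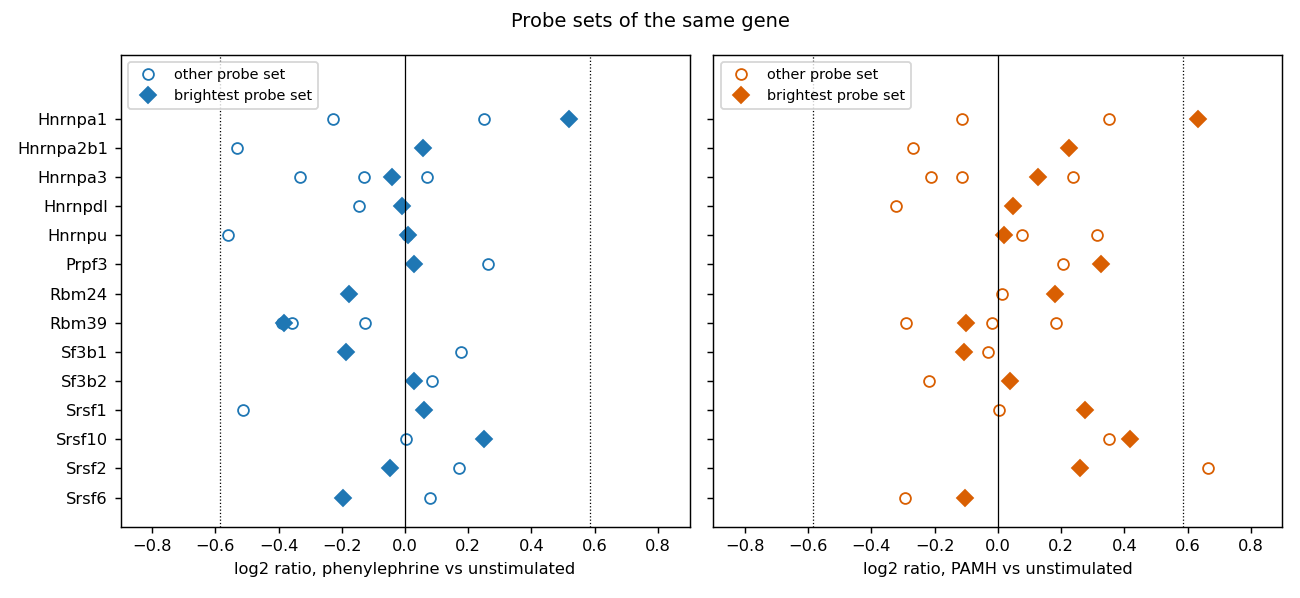
Log2 ratio of every measured probe set of the 14 members with at least 2 of them, against the unstimulated array, with the brightest probe set filled and the others open; dotted lines mark 1.5-fold. The probe sets of Hnrnpa1 spread from -0.23 to 0.52 with phenylephrine, while all 4 of Rbm39 lie below 0.

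Genes that act beside the members in RNA processing were taken from 7 lists. Together they held 160 genes measured with phenylephrine, of which 7 were higher and 8 lower, and 157 with PAMH, of which 8 were higher and 5 lower. Their medians were 0.02 and 0.09. As shares, 4.38% were higher and 5.00% lower with phenylephrine, against 8.90% and 4.54% of all genes, and 5.10% were higher and 3.18% lower with PAMH, against 9.31% and 4.17%. The share lower with phenylephrine was thus near the background and the others below it.

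The muscle and neuronal splicing regulators held 1 gene past 1.5-fold, Khdrbs3, a STAR family protein, with 293, 364 and 491, or 1.68-fold higher with PAMH. None of those best known in the heart passed 1.5-fold. Mbnl1, which drives the adult splicing pattern, had 1004, 934 and 886, and its relative Mbnl2 had 1251, 1466 and 1262. Celf1, which opposes the Mbnl proteins, had 977, 1033 and 1103, and Celf2 694, 810 and 956, a PAMH ratio of 0.46. Rbfox2 had 565, 735 and 701, a phenylephrine ratio of 0.38, and Ptbp1 444, 476 and 459. Rbfox1 was near or below the floor, with 85.6, 92.7 and 73.3. Kinases and phosphatases of SR proteins had none past 1.5-fold among 16 genes. Over all genes 8.90% were higher and 4.54% lower with phenylephrine, and 9.31% and 4.17% with PAMH.

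Other hnRNP-like proteins included Pcbp4, a poly(C)-binding protein, with 121, 352 and 217. It was 2.90-fold higher with phenylephrine and 1.79-fold with PAMH, the only gene of the 7 lists over 2-fold higher. Rbmx, the hnRNP G gene, had 179, 311 and 227, 1.74-fold higher with phenylephrine. Rbms1 was lower on both treated arrays, with 374, 249 and 223, and 1.68-fold lower with PAMH. Fxr2, with 371, 408 and 270, was below 1.5-fold against the unstimulated array and 1.51-fold lower with PAMH than with phenylephrine, as was Pcbp4 at 1.62-fold.

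Among 51 spliceosome helicases and other spliceosome proteins measured with phenylephrine, 2 were higher and 4 lower, where 8.90% and 4.54% of all genes were. Among 50 with PAMH 3 were higher and 2 lower, where 9.31% and 4.17% of all genes were. Eftud2, the GTPase of the U5 snRNP, had 418, 646 and 643 and was higher with both, at 1.55-fold and 1.54-fold. Ddx39a (473, 745 and 614) was higher with phenylephrine, and Txnl4a (578, 859 and 914) and Puf60 (399, 520 and 616) with PAMH. Zmat2 (447, 251 and 243) and Ctnnbl1 (303, 200 and 192) were lower with both. Cdc40 (142, 91.2 and 126) and Txnl4b (121, 77.5 and 84.8) were lower with phenylephrine, at signals near the floor.

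In the LSM and SMN list, the SMN complex gene Gemin7 was higher with both compounds, with 282, 528 and 434, and Gemin2 (188, 121 and 208) was lower on the phenylephrine array alone. Lsm4 (575, 880 and 804) was 1.53-fold higher with phenylephrine and Lsm2 (216, 270 and 330) 1.53-fold with PAMH. Among exon junction, export and decay genes Thoc6 (202, 320 and 262) was higher and Upf2 (338, 197 and 287) lower with phenylephrine, and Srrm1 (264, 368 and 449) was higher with PAMH. In 3′ end processing Wdr33 had 178, 80.4 and 161, 2.21-fold lower with phenylephrine alone and near the floor there. Cpsf6 (265, 154 and 171) was lower with both, and Fip1l1 (332, 257 and 209) with PAMH.

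**Figure D5:**
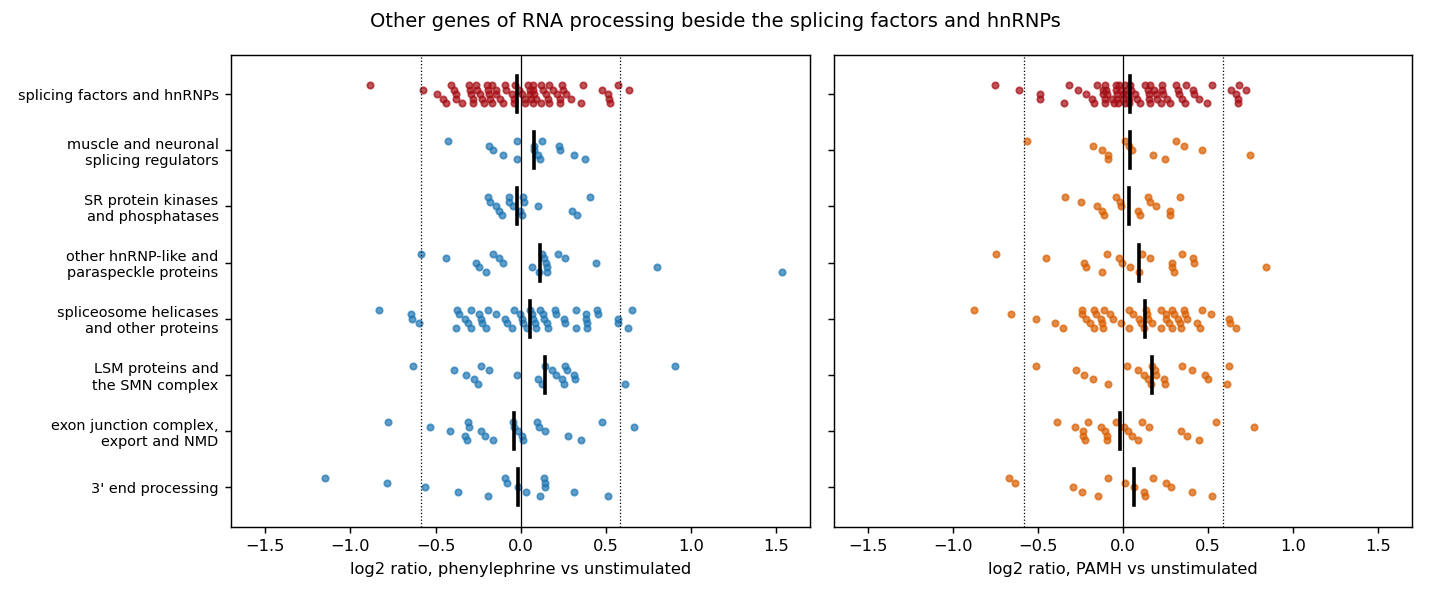
Log2 ratio against the unstimulated array of the members and of each gene in the 7 lists of related genes, with the median of each set as a bar and dotted lines at 1.5-fold; points are spread vertically only to separate them. Medians lie close to 0 in every set, and Pcbp4 with phenylephrine is furthest right, at 1.54.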

How the data were processed

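Messenger RNA was measured with 3 Affymetrix rat arrays, 1 per group. Each of 15923 probe sets has 1 deposited intensity per array, not log-transformed. Which software and scaling the authors used is not given in the sources used here, though equal trimmed means point to a common target. After leaving out 57 control probe sets, each array was multiplied by 1 factor (0.937, 1.02 and 1.04 for unstimulated, phenylephrine and PAMH) to equal medians, and a floor was set at percentile 40 of all scaled values. Genes came from the platform annotation, in which 12783 probe sets carry 1 symbol, with symbols updated by gene identifier. The brightest probe set by mean over the arrays stood for a gene, and probe sets with several symbols were left out. A gene under the floor on 1 array was to get a bound if another array exceeded percentile 75, which no member met. Depth does not apply to arrays, and their number limits the precision.

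Named with values were members past 1.5-fold, the 8 highest and 8 lowest ratios against the unstimulated array, members whose probe sets differed by over 1.5-fold and a panel of heart regulators, besides all others by role. The members and lists were chosen with earlier results of these data known. Of the alternatives, 11 changed the scaling, normalization, floor, offset and probe set rule, and centring on the measured genes was added after seeing the data. The computation was tested on simulated data. It used Python 3.11.15, numpy 2.4.6, pandas 2.3.3 and, for quantile and cyclic loess normalization, R 4.3.3 with limma 3.58.1. Promoter sequences are from RefSeq (GRCr8). Rbm20 and U2af1 were not analysed here.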

Additional observations from a re-analysis of the deposited data

How the results depend on the processing

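No paired analysis was possible because each group was 1 array. The number of members at least 1.5-fold higher with phenylephrine, 1 in the main setting, was 0 on the deposited intensities, with the floor at percentile 50, with an offset of 50 and when ratios were centred on the measured genes. Of all genes 5.98%, 8.75%, 6.42% and 6.92% were higher in these settings, against 8.90% in the main one. The number lower, also 1, was 3 on the deposited intensities, 2 when scaled on percentile 75, 2 after quantile normalization and 2 when centred. Of all genes 7.83%, 5.35%, 5.89% and 6.16% were then lower, against 4.54% in the main setting. The members' shares of 4.17%, 2.78%, 2.78% and 2.78% stayed below these. With PAMH the number higher, 6, was 0 on the deposited intensities, 2 with an offset of 50 and 1 when centred, while the share of all genes higher went from 9.31% to 5.33%, 6.84% and 6.60%. The number lower, 2, was 4 on the deposited intensities, 1 with the offset and 4 when centred, with 7.84%, 2.41% and 6.31% of all genes lower. The members' median log2 ratio ranged from -0.16 to 0.01 with phenylephrine and from -0.11 to 0.05 with PAMH, and was below that of all genes under all 12 alternatives in both. Between PAMH and phenylephrine it ranged from 0.09 to 0.13, above all genes in each, and no member passed 1.5-fold under any. No member past 1.5-fold changed sign under any of the 12 alternatives that gave it a value. Ratios near the floor, such as those of Hnrnpul1, Rbm4b and Rbm12b, rest on signals little above it.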

Other observations

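Probe sets annotated to several symbols, at least 1 of which fits the gene choice, were left out above and are given here as values. Hnrnpk, an hnRNP that binds C-rich sequence, shared its probe sets with a pseudogene. They gave 2174, 2635 and 2768 in the order unstimulated, phenylephrine, PAMH, and 1878, 1995 and 1999, so the phenylephrine log2 ratios were 0.28 and 0.09 and those with PAMH 0.35 and 0.09. Srsf3, the smallest SR protein, gave 1201, 1107 and 1186 by the brighter probe set, ratios of -0.12 and -0.02, and 207, 135 and 204 by the other, where the phenylephrine ratio was -0.62. Both Srsf3 probe sets were lowest on the phenylephrine array. The probe sets of Snrpc and Snrpg, shared with close copies, and the one shared by Rbm4b and Rbm4 had ratios between -0.04 and 0.10 with either compound.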
